A study of Mus musculus with 21 samples.

Results

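The transcripts of the mitochondrial respiratory chain were followed through sorted Mist1-positive cells of the mouse small intestine. Members were the genes whose symbols name subunits of complex I (Nduf), complex II (Sdh), complex III (Uqcr), complex IV (Cox4 to Cox8) or the ATP synthase, complex V (Atp5), together with the assembly factors that carry an Nduf or Sdh symbol. This gave 94 of the 18194 genes on the array: 36 of complex I, 4 of complex II, 8 of complex III, 17 of complex IV, 17 of complex V, and 8 and 4 assembly factors of complexes I and II. Each gene was read from 1 probe set, a group of short probes for 1 transcript, on the scale log2(signal + 16). Of the 94 members, 89 passed a filter on low values and were tested among 11825 genes. Cox4i2, Cox7b2, Cox8b, Ndufa4l2 and Ndufb4 did not pass it. Ndufa4 is kept with complex I because of its symbol, although its protein is now placed in complex IV.

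The respiratory chain sits in the inner mitochondrial membrane. Complex I takes electrons from NADH and complex II from succinate, complex III passes them to cytochrome c, and complex IV hands them to oxygen. The proton gradient built on the way drives the ATP synthase. Almost all subunits are encoded in the nucleus, and the members are all nuclear genes. In the intestinal epithelium, absorptive enterocytes are rich in mitochondria, and in the crypt Lgr5-positive stem cells have been described as relying on mitochondrial oxidation and Paneth cells on glycolysis.

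The sorted cells carried the red protein TdTomato, were described as Mist1-positive, and were parted by the surface protein CD24 into a CD24lo and a CD24hi fraction. Each fraction was taken untreated, after ablation of Lgr5-positive cells (Lgr5-ablated), after irradiation with 10 Gy, after doxorubicin, a DNA-damaging drug, and with NICD, an abbreviation commonly used for an activated piece of Notch but not spelled out in the labels. This made 10 groups of 2 arrays. The remaining array was whole intestine, labelled as villi, without a replicate. The driver of the reporter and of NICD, the strain, the age, the drug dose and the times after treatment are not in the labels, and the means of ablation appears only as DT in sample titles. The labels do not tell if same-group samples are different animals, so p-values measure only the spread between these samples, which may be technical.

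Array medians of the signal ran from 101 to 158 in sorted samples, and correlations across genes within groups were 0.942 to 0.985, where genes are not independent replicates. The array of CD24hi NICD replicate 2 stood apart, with an actin 3′ to 5′ ratio of 1.03 against 1.3 to 1.58 on the other sorted arrays, and the counts, medians and named differences that rest most on it are given with and without it. Bhlha15, which encodes Mist1, and Cd24a were both higher in CD24hi cells, by 2.24 and 1.01 on the log2 scale over 5 conditions. Lgr5 did not pass the test after Lgr5 ablation. Its CD24lo values were 8.90 and 8.44 before and 7.98 and 6.53 after ablation, its CD24hi values 11.48 and 10.95 before and 10.17 and 9.65 after, so that it was lower on each ablated array (adjusted p = 0.585 and 0.456, limma). Summed signals of 4 pan-epithelial markers were 32270 to 45132, whereas 5 fibroblast and muscle markers summed to 101 to 471 against 6668 in whole intestine. T cell markers summed to 152 to 2182 against 9596. Other non-epithelial lists were not low: B and plasma cell markers summed to 503 to 16126 against 3971. Macrophage markers summed to 2053 to 10451 against 4362, although Adgre1 and Csf1r of that list did not pass the filter.

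RefSeq promoters (mouse build GRCm38.p6, 250 bases before to 50 after the start) were at hand for 78 members. They were searched on both strands for 3 motifs of factors known to act on nuclear genes of mitochondria. These were GCGCANGCG for NRF1, CCGGAAG for ETS factors such as GABP, and AAGATGGCG for YY1. These members have 83 promoters in the table. At least 1 of the motifs was in 43 of the 83 (51.8%) and in 14.8% of all 32851 promoters. NRF1 matched in 27.7% of the members' promoters and 6.25% of all promoters, the ETS motif in 26.5% and 8.86%, and YY1 in 8.43% and 1.4%. The 120 bases before the start are shown for 1 subunit of each complex, so that the motifs can be seen in their setting, with matches in capitals. Each transcript was lower both in CD24hi cells averaged over conditions and with NICD in CD24lo cells. The genes were taken from those with a match in this stretch, so that the matches shown are no evidence of how common they are. All 5 lie on the minus strand: Ndufa8 at chr2:36049339-36049458, Sdhd at chr9:50603850-50603969, Uqcrh at chr4:116075071-116075190, Cox6a1 at chr5:115348959-115349078 and Atp5c1 at chr2:10080433-10080552.
Ndufa8: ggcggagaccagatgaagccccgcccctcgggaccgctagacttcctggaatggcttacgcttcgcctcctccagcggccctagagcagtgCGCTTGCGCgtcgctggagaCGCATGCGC
Sdhd: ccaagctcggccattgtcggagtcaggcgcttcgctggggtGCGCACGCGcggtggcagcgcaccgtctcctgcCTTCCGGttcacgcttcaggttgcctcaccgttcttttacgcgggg
Uqcrh: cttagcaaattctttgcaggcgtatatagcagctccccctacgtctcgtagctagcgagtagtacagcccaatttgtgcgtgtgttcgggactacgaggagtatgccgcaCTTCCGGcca
Cox6a1: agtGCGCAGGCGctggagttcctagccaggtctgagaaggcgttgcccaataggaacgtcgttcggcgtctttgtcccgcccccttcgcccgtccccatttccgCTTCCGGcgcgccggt
Atp5c1: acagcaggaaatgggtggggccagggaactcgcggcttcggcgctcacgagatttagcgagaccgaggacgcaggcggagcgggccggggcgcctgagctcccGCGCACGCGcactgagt
The promoter of Ndufa8, an accessory subunit of complex I, holds 2 NRF1 matches, and that of Atp5c1, the gamma subunit of the ATP synthase, holds 1. The promoters of Sdhd, a membrane anchor of complex II, and of Cox6a1 hold an NRF1 and an ETS match each in the stretch shown, and that of Uqcrh, the hinge protein of complex III, an ETS match. Counted by gene, a motif was in 30 of 47 members lower in CD24hi cells (63.8%), 21 of 32 lower with NICD in CD24lo cells (65.6%), 18 of 24 lower in both (75%) and 8 of 20 lower in neither (40.0%); these sets overlap and the differences were not tested. Atp5c1 has 2 promoters in the table, of which the 1 with more matches is shown and the other holds 0. A match is a string of letters and not a bound site.

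Levels of the members were first read on each array as their median log2 level relative to the mean of the 20 sorted arrays. In untreated cells this median was 0.45 and 0.31 in the CD24lo arrays and -0.07 and -0.03 in the CD24hi arrays. In doxorubicin cells it was 0.32 and 0.46 against -0.02 and -0.09. After irradiation it was 0.09 and 0.02 against -0.39 and -0.26, and after Lgr5 ablation -0.04 and 0.33 against -0.28 and 0. With NICD it was -0.12 and -0.26 in CD24lo and -0.19 and -0.06 in CD24hi cells. The fractions were thus apart in 3 conditions and overlapped in Lgr5-ablated and NICD cells, while the median over all tested genes stayed between -0.11 and 0.08 on the same arrays. In bulk RNA such as this, fewer cells of a type and less RNA per cell cannot be told apart.

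**Figure D1:**
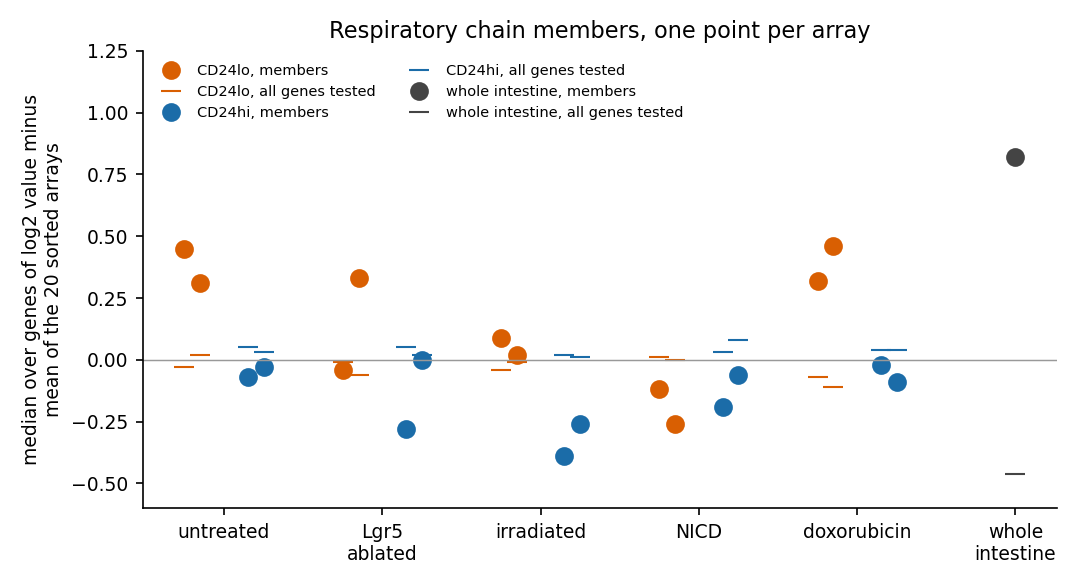
Median over the 89 tested members (circles) and over all 11825 tested genes (dashes) of the log2(signal + 16) value minus the mean of the 20 sorted arrays, by condition, with 1 point per array. Members lie above the all-gene dash in untreated and doxorubicin CD24lo arrays (0.31 to 0.46) and highest in whole intestine (0.82).

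The first comparison asked how the chain differs between the fractions of untreated Mist1-positive cells. Transcripts of 12 members were lower in CD24hi than in CD24lo cells and 0 were higher (limma with Benjamini-Hochberg adjustment over all genes at 0.05). Of all genes, 6.88% were lower and 7.51% higher. The 12 were Ndufa6, Ndufab1, Ndufs3, Ndufa8, Ndufb10, Ndufb6, Ndufb7 and Ndufs4 of complex I, Sdhb and Sdhd of complex II, and Cox7a1 and Cox5a of complex IV. The median difference of the members was -0.44 on the log2 scale, against 0.05 for all genes, and 83 of 89 were negative.

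Cox7a1, the heart and muscle isoform of a small complex IV subunit, read 10.65 and 10.09 in untreated CD24lo and 9.05 and 8.08 in CD24hi cells. Both CD24hi arrays lay below both CD24lo arrays, a difference of -1.80 ± 0.43 (SE, n = 2 per group, limma adjusted p = 0.00852). Ndufab1, the mitochondrial acyl carrier protein that is also a complex I subunit, read 11.66 and 11.59 against 10.87 and 10.61, without overlap (-0.88 ± 0.22, limma adjusted p = 0.0115). Sdhb, the iron-sulphur subunit of succinate dehydrogenase, read 12.55 and 12.51 against 11.63 and 11.92, again without overlap (-0.75 ± 0.21, limma adjusted p = 0.0204). The count fell in each fit that left out 1 of the untreated arrays and so kept 1 array in a group. The share of all genes in those fits is not given here. From the member counts alone, fewer members cannot be told from fewer calls over all genes.

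Averaged over the 5 conditions, with 10 arrays in each fraction, 58 members were lower in CD24hi cells and 1 was higher, where 19.2% of all genes were lower and 27.4% higher. The members' median difference was -0.30 against 0.07 for all genes, and 81 of 89 were negative. By complex, 25 of 34 tested genes of complex I were lower, 4 of 4 of complex II, 7 of 8 of complex III, 9 of 14 of complex IV and 13 of 17 of complex V. None of the 12 assembly factors was lower. The count of lower and higher members together ran from 48 to 64 when each of the 20 arrays was left out in turn, and it was 63 without CD24hi NICD replicate 2, a fit that called 47% of all genes.

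In complex I the largest difference was that of Ndufab1, whose values ran from 11.11 through a median of 11.58 to 12.05 in CD24lo and from 10.42 through 10.82 to 11.08 in CD24hi arrays. No CD24hi array reached the lowest CD24lo array, and the difference was -0.80 ± 0.10 (SE, n = 10 per fraction, limma adjusted p = 4.6e-06). Ndufs3, a core subunit of the arm that meets the quinone, ran from 12.18 through 12.69 to 13 in CD24lo and from 11.58 through 11.96 to 12.16 in CD24hi arrays, also without overlap (-0.70 ± 0.08, limma adjusted p = 1.92e-06). Ndufs5, an accessory subunit, had ranges of 7.99 to 9.48 and 7.28 to 8.69 that overlapped (-0.69 ± 0.16, limma adjusted p = 0.00168). Ndufs1, the large iron-sulphur subunit, differed by -0.39 ± 0.09 and Ndufa9 by -0.34 ± 0.07, both past the threshold. Ndufv1, which binds NADH, did not pass it (-0.19 ± 0.09, limma adjusted p = 0.105).

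All 4 genes of succinate dehydrogenase were lower. Sdhd, a membrane anchor, ran from 11.79 through 12.2 to 12.63 in CD24lo and from 11.03 through 11.57 to 12.04 in CD24hi arrays (-0.59 ± 0.08, limma adjusted p = 2.13e-05), with some overlap. Sdhb differed by -0.51 ± 0.09, Sdha, the flavoprotein subunit, by -0.30 ± 0.07 and Sdhc by -0.21 ± 0.08. Sdhaf1, an assembly factor that helps the iron-sulphur subunit mature, went the other way: its medians were 10.15 in CD24lo and 10.48 in CD24hi arrays (0.36 ± 0.10, limma adjusted p = 0.00532). It was the 1 member that was higher, and its ranges overlapped.

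In complex III the largest averaged differences were smaller than in complexes I and II. The average includes NICD, where Uqcrq, Uqcrc1 and Uqcr11 had differences of 0.57, 0.50 and 0.41. In untreated cells these were -0.59, -0.60 and -0.56, while Uqcrb and Uqcrfs1 were negative in both. Uqcrh differed by -0.43 ± 0.10, the Rieske iron-sulphur protein gene Uqcrfs1 by -0.41 ± 0.10 and Uqcr11 by -0.33 ± 0.12, all past the threshold, the last in 9 of the 20 fits without 1 array. The core protein gene Uqcrc1 passed narrowly (-0.27 ± 0.11, limma adjusted p = 0.0469), and Uqcrq was the member that missed it (limma adjusted p = 0.0566).

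In complex IV, Cox7a1 ran from 9.12 through 10.49 to 11.19 in CD24lo and from 8.08 through 9.11 to 9.58 in CD24hi arrays, a difference of -1.27 ± 0.19 (limma adjusted p = 4.26e-05) and the largest of the 89 members. Cox5a, a subunit made in most tissues, ran from 13.19 through 13.35 to 13.61 and from 12.62 through 12.9 to 13.09 without overlap (-0.46 ± 0.07, limma adjusted p = 3.78e-05). Cox6c differed by -0.45 ± 0.09 and Cox4i1, the common isoform of subunit IV, by -0.22 ± 0.08 (limma adjusted p = 0.0391). The Cox4i1 call was held in 5 of the 20 fits without 1 array.

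The isoform families of complex IV were read side by side. The common forms Cox6a1, Cox6b1, Cox7a2 and Cox8a were lower in CD24hi cells by -0.30, -0.44, -0.22 and -0.31, and so were the muscle forms Cox6a2 by -0.42 and Cox7a1. Cox6a2 was dim, with group means of 6.89 to 8.26. Its difference was -0.26 in untreated, -0.62 in Lgr5-ablated, -0.06 in irradiated, -1.07 in doxorubicin and -0.1 in NICD cells. Cox6b2 and Cox8c, known mainly from testis, had differences of 0.22 and 0.42 that did not pass the threshold, nor did Cox7a2l (-0.10), known for its part in respiratory supercomplexes.

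In the ATP synthase, Atp5k, a small membrane subunit, differed by -0.59 ± 0.13, the stalk subunit gene Atp5o by -0.45 ± 0.10 and Atp5pb by -0.42 ± 0.10, all past the threshold. The catalytic beta subunit gene Atp5b did not (-0.04 ± 0.11, limma adjusted p = 0.779), whereas the alpha subunit gene Atp5a1 did (-0.28 ± 0.10, limma adjusted p = 0.0388), in 8 of the 20 fits without 1 array. By condition Atp5b differed by -0.35 in untreated, -0.17 in Lgr5-ablated, -0.12 in irradiated and -0.16 in doxorubicin cells, and by 0.61 with NICD. Of the 3 genes that make the same ring subunit c, Atp5g1 passed (-0.31 ± 0.12, limma adjusted p = 0.0433), and Atp5g2 (-0.10) and Atp5g3 (-0.19) did not.

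**Figure D2:**
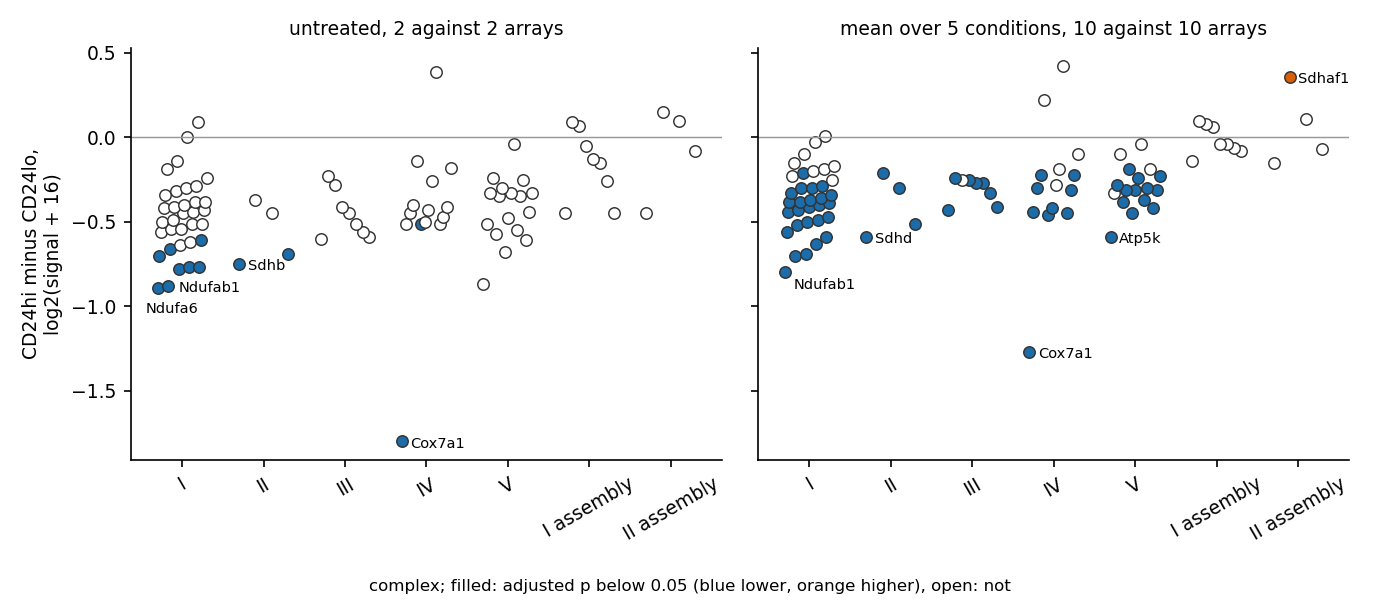
Difference CD24hi minus CD24lo in log2(signal + 16) for each tested member, by complex, in untreated cells (left) and averaged over 5 conditions (right), with filled points past an adjusted p of 0.05. Subunit genes of all 5 complexes lie mostly below 0, assembly factors lie around 0, and Cox7a1 is lowest at -1.80 and -1.27.

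Of the 89 members, 4 had every CD24hi array below every CD24lo array across all conditions: Ndufab1, Ndufs3, Ndufb7 and Cox5a. Over all genes 1.61% had no such overlap. Ndufb7, an accessory subunit of complex I, ran from 11.15 through 11.67 to 12.2 in CD24lo and from 10.94 through 11.06 to 11.14 in CD24hi arrays.

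The difference between fractions was not alike in every condition. Its median over members was -0.44 in untreated, -0.30 in Lgr5-ablated, -0.37 in irradiated and -0.48 in doxorubicin cells, but 0.07 with NICD. The all-gene median in the same conditions was 0.05, 0.08, 0.04, 0.11 and 0.06. Of all 89 tested members, 83, 82, 77 and 79 had a negative difference in untreated, Lgr5-ablated, irradiated and doxorubicin cells, and 40 with NICD. Without CD24hi NICD replicate 2, a value added after seeing the data, the NICD median was 0.01 and 42 members were negative. For Ndufa6 the differences were -0.89, -0.46, -0.87 and -1.15 in untreated, Lgr5-ablated, irradiated and doxorubicin cells and 0.56 with NICD. The averaged comparison over those 4 conditions alone, chosen after seeing the data, gave 67 lower and 1 higher member, where 18.5% of all genes were lower and 26.3% higher.

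Markers of other cell types moved with the fractions. All 5 enterocyte markers tested were lower in CD24hi cells, with summed signals of 8475 to 33471 against 23675 to 81569 in CD24lo cells. All 4 stem cell markers were higher (6499 to 28061 against 1053 to 18768), as were 3 of 4 Paneth markers (49859 to 144358 against 33038 to 55088), all 4 tuft cell markers (481 to 8979 against 80 to 182) and 3 of 5 enteroendocrine markers (7624 to 65933 against 5905 to 16229). Of 5 goblet markers, 1 was lower (52575 to 106178 against 67936 to 114450). The part of these markers in the differences of the members was not tested.

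The next question was how each treatment changed the chain within a fraction. With NICD, 38 members were lower in CD24lo cells than in untreated CD24lo cells and 0 were higher, where 7.72% of all genes were lower and 6.63% higher. The median difference was -0.52 against 0.04 for all genes. The lower members were 15 of 34 in complex I, 2 of 4 in complex II, 6 of 8 in complex III, 4 of 14 in complex IV, 10 of 17 in complex V and 1 assembly factor, Ndufaf8 (-0.96).

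Atp5d, the delta subunit in the central stalk of the ATP synthase, read 12.76 and 13.17 in untreated and 11.84 and 11.14 in NICD CD24lo cells (-1.47 ± 0.30, SE, n = 2 per group, limma adjusted p = 0.0103). The ring subunit gene Atp5g1 read 11.54 and 11.4 against 10.54 and 9.79 (-1.31 ± 0.27, limma adjusted p = 0.0109). For both genes the groups did not overlap and NICD replicate 2 was the lowest array. Atp5e, the epsilon subunit gene, differed by -1.01, Atp5g2 by -0.92 and Atp5b by -0.77, all past the threshold. The value of Atp5a1 was 0.11 on its probe set, and another probe set of the gene gave -0.59 (limma adjusted p = 0.0317).

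In complex III, Uqcr11 read 11.69 and 11.28 in untreated and 10.5 and 9.65 in NICD CD24lo cells, with no overlap (-1.41 ± 0.28, limma adjusted p = 0.00991). Uqcrq followed at -1.05, the core gene Uqcrc1 at -0.89 and Uqcrfs1 at -0.70, each past the threshold. In complex II, Sdhb read 12.55 and 12.51 against 11.73 and 11.49 (-0.92 ± 0.21, limma adjusted p = 0.0143) and Sdhd differed by -0.70. Sdha did not pass (-0.33 ± 0.15, limma adjusted p = 0.148).

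In complex I, Ndufs8, a core iron-sulphur subunit, read 11.71 and 11.66 in untreated and 10.75 and 9.89 in NICD CD24lo cells, without overlap (-1.37 ± 0.23, limma adjusted p = 0.00548). Of 5 other probe sets of Ndufs8, 4 also passed as lower. Ndufb2 (-1.12) and Ndufa8 (-1.07) came next among those that passed, but a more gene-specific probe set of Ndufb2 gave 0.45 (limma adjusted p = 0.232). Ndufv1 (-0.72), Ndufs1 (-0.63) and Ndufa9 (-0.56) passed too. The members that separated the fractions most in complex I did not pass here. Ndufab1 gave 0.15 and Ndufs3 gave 0.04, while Ndufs5 gave -0.78 without overlap (limma adjusted p = 0.128).

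In complex IV, Cox4i1 read 13.13 and 13.13 in untreated and 12.32 and 12.05 in NICD CD24lo cells (-0.94 ± 0.18, limma adjusted p = 0.00991), which did not overlap. Cox6b1 (-0.75), Cox6c (-0.63) and Cox6a1 (-0.45) also passed. Cox5a at 0.04 and Cox7a1 at -0.67 did not (limma adjusted p = 0.28 for the latter).

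The NICD count rested on the arrays. It was 0 without CD24lo NICD replicate 2, a fit that called 0.0338% of all genes and left 38 members at an unadjusted p under 0.05. The share of all genes at that unadjusted p is not given. The count also fell without each of the other arrays compared, and least without NICD replicate 1. Those fits kept 1 array in a group, and their share of all genes is not given. In the same comparison 2 of 5 enterocyte markers were lower, with summed signals of 23675 to 23909 against 34816 to 42170 in untreated CD24lo cells, and 2 of 5 goblet markers were lower (67936 to 72828 against 90139 to 114450). Of the other lists, 1 Paneth marker was lower and 1 enteroendocrine and 1 T cell marker were higher. Summed signals also did not overlap for B and plasma cell markers (7490 to 9073 with NICD against 2614 to 4865), stem markers (16087 to 18768 against 11565 to 13317) and pan-epithelial markers (33171 to 35090 against 39039 to 42834), although 0 markers of these 3 lists passed the test. Their part in the result was not tested.

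**Figure D3:**
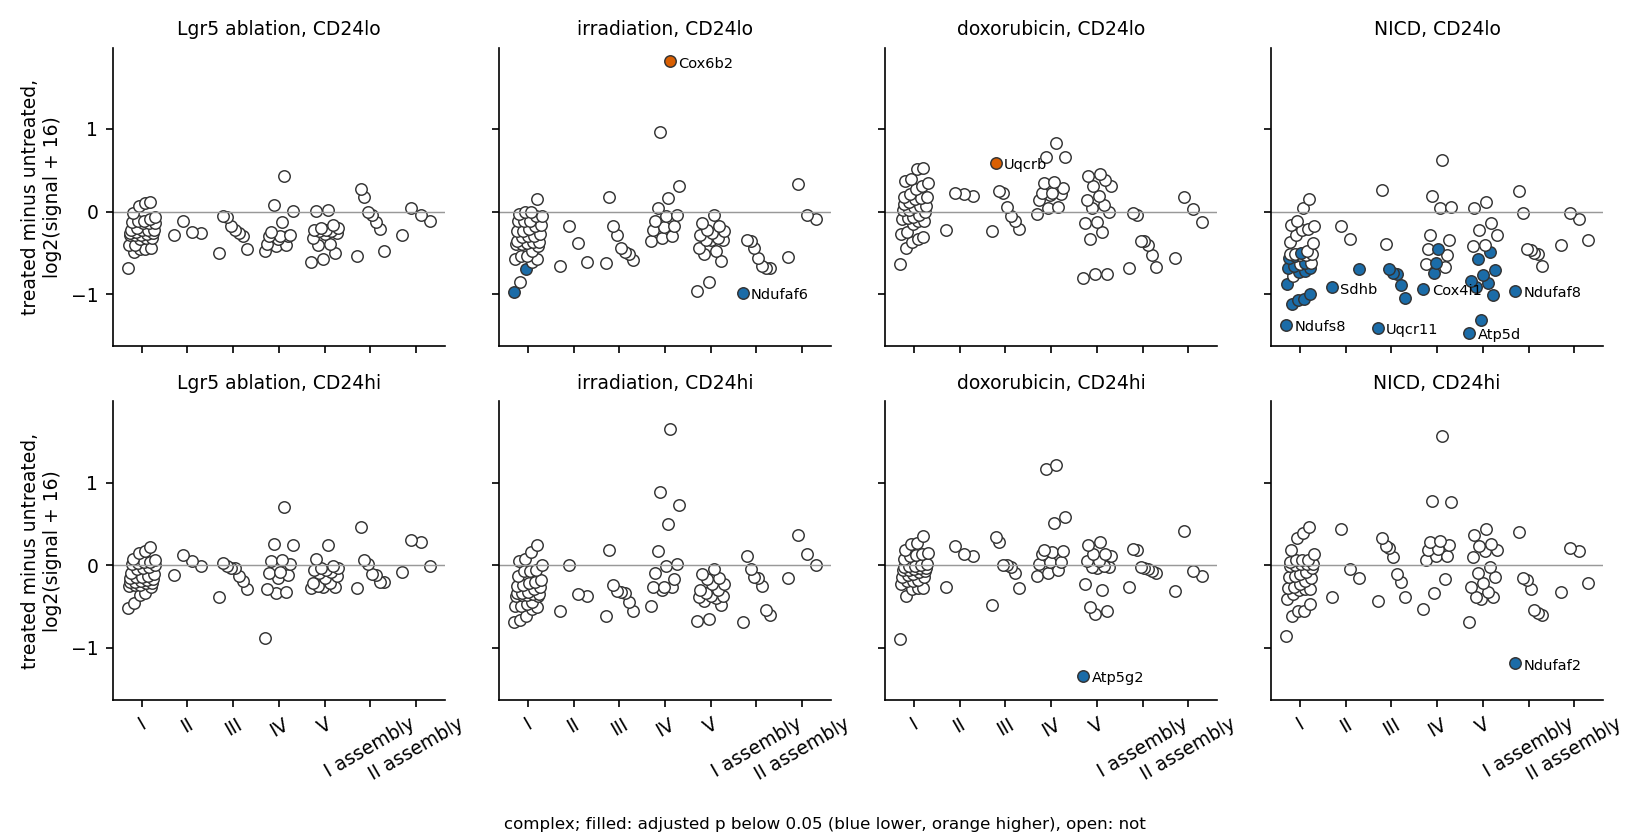
Difference treated minus untreated in log2(signal + 16) for each tested member, by complex, for 4 treatments in CD24lo (top) and CD24hi cells (bottom), with filled points past an adjusted p of 0.05. The NICD panel of CD24lo cells holds 38 filled points below 0, and the other panels hold 0 to 4.

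In CD24hi cells 1 member was lower with NICD, a share near that of all genes, of which 1.84% were lower and 4.61% higher. It was Ndufaf2, an assembly factor of complex I, at 8.55 and 8.43 in untreated and 7.48 and 7.12 in NICD cells, with no overlap (-1.19 ± 0.29, SE, n = 2 per group, limma adjusted p = 0.0218). The members' median difference was -0.09, and -0.14 without CD24hi NICD replicate 2. Without that array the count was 0 and Ndufaf2 gave -1.01 (limma adjusted p = 0.217), and without replicate 1 it was 13, with 5 higher and 8 lower, in a fit that called 18.9% of all genes. Without either untreated CD24hi array it was 0. All 4 tuft markers (7994 to 8979 against 936 to 1345) and all 5 enteroendocrine markers (39746 to 65933 against 9171 to 9514) were higher in the NICD cells. Summed signals also did not overlap for enterocyte markers (17059 to 21768 with NICD against 9737 to 14518) and stem markers (20821 to 24393 against 26288 to 28061). The same held for B and plasma cell (11801 to 12656 against 3270 to 4066), macrophage (7975 to 9692 against 5888 to 7726) and pan-epithelial markers (39141 to 45132 against 32270 to 38037). The part of these markers in the result was not tested.

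The difference between the NICD effects in the fractions was itself tested. It passed the threshold for 3 members, a share near that of all genes, of which 2.61% passed in either direction. Atp5d had CD24hi values of 11.94 and 12.25 in untreated and 11.76 and 12.89 with NICD, an effect of 0.23 against -1.47 in CD24lo cells (difference 1.70 ± 0.42, limma adjusted p = 0.0454). Ndufa6, an accessory subunit of complex I, went from 10.4 and 10.04 to 9.31 and 9.01 in CD24lo cells and from 9.47 and 9.19 to 9.76 and 9.69 in CD24hi cells (difference 1.45 ± 0.35, limma adjusted p = 0.0447). Cox4i1 read 12.61 and 12.7 in untreated and 12.54 and 13.17 in NICD CD24hi cells (difference 1.14 ± 0.26, limma adjusted p = 0.038). The NICD arrays of CD24hi cells were wide for Atp5d and Cox4i1, where replicate 2 was the higher, and both lay above the untreated arrays for Ndufa6. The count was 0 without any 1 of the 4 untreated arrays, without CD24lo NICD replicate 2 and without CD24hi NICD replicate 2. It was 9 without CD24lo NICD replicate 1 and 22 without CD24hi NICD replicate 1, fits that called 6.37% and 22.2% of all genes. Without CD24hi NICD replicate 2 the differences were 1.14 for Atp5d, 1.49 for Ndufa6 and 0.83 for Cox4i1 (limma adjusted p = 0.246, 0.198 and 0.198).

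**Figure D4:**
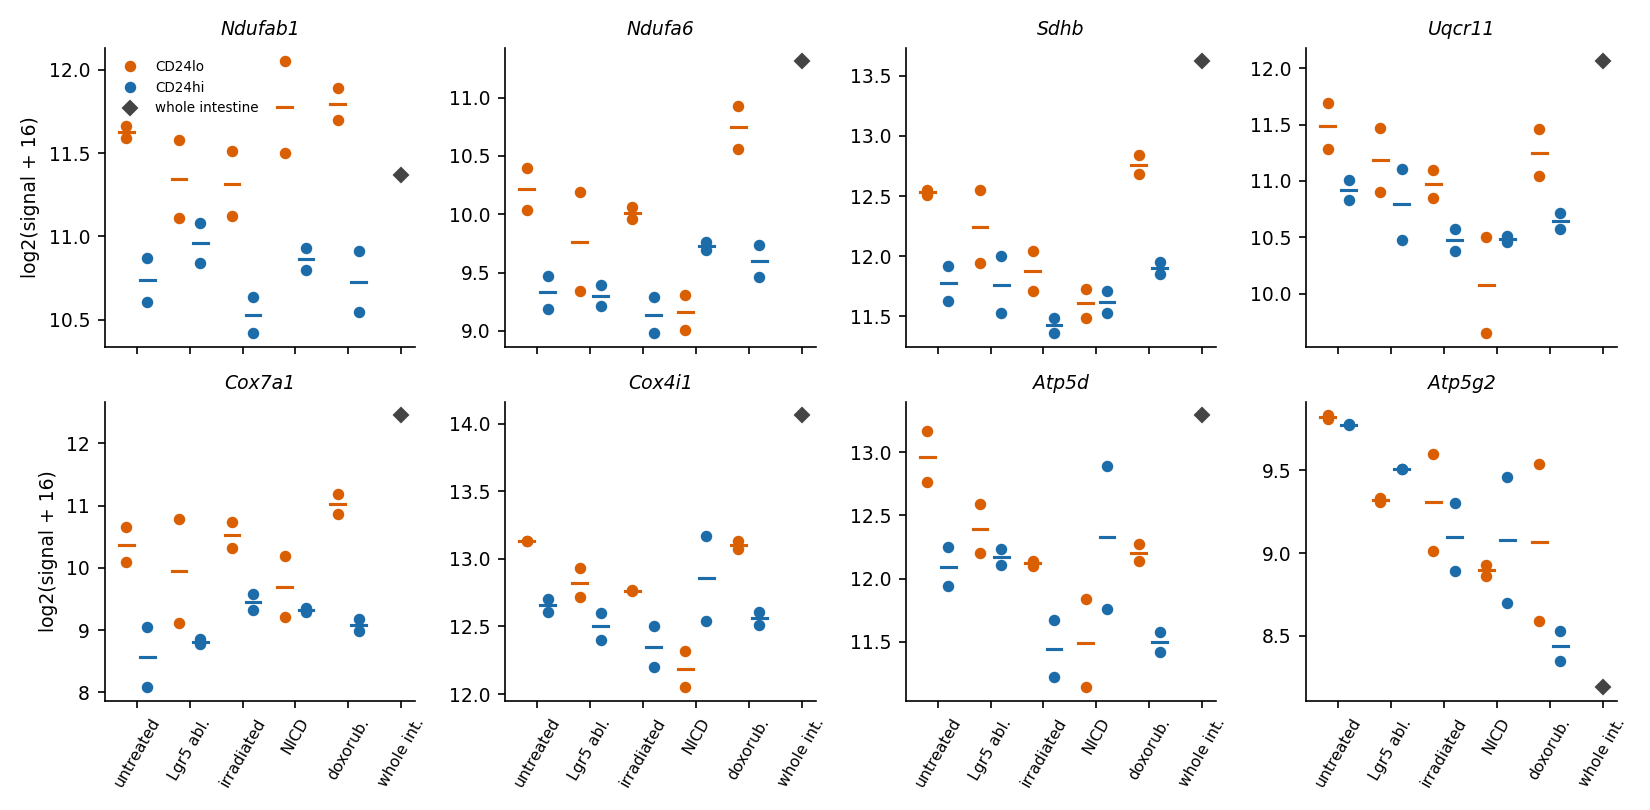
log2(signal + 16) of 8 members on every array, by condition, with points for arrays, short lines for the mean of 2 arrays and a diamond for whole intestine; the vertical axes differ in range and do not start at 0. Ndufa6, Cox4i1 and Atp5d lie higher in CD24lo than in CD24hi cells in untreated cells, and with NICD their CD24lo means are the lower ones.

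The comparison of the fractions over 5 conditions and that of NICD in CD24lo cells both use the untreated and NICD CD24lo arrays, so they are not independent. Cox5a, Ndufab1, Ndufs3 and Cox7a1 passed in the first and not in the second, and Cox4i1, Sdhb, Uqcr11 and Ndufa8 passed in both.

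After irradiation, which damages DNA and empties the crypt of cycling cells, 3 members were lower in CD24lo cells and 1 was higher. Of all genes, 2.45% were lower and 1.57% higher, so both counts were near the shares of all genes. Ndufs8 read 11.71 and 11.66 in untreated and 10.57 and 10.85 in irradiated cells (-0.97 ± 0.23, SE, n = 2 per group, limma adjusted p = 0.0265). Ndufa10, an accessory subunit, read 12.79 and 12.87 against 12.13 and 12.13 (-0.70 ± 0.17, limma adjusted p = 0.0299). Ndufaf6, an assembly factor, read 9.06 and 8.88 against 7.87 and 8.09 (-0.99 ± 0.25, limma adjusted p = 0.0323). None of these overlapped.

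The raised member was Cox6b2, known mainly from testis. It was dim in untreated CD24lo cells, where its values lay near the array medians that the filter on low values uses. It read 6.55 and 7.35 in untreated and 9.09 and 8.44 in irradiated CD24lo cells (1.82 ± 0.44, limma adjusted p = 0.0267). In CD24hi cells it read 7.47 and 7.21 against 7.57 and 8.56 and did not pass (0.73 ± 0.44, limma adjusted p = 0.454). The members' median difference after irradiation was -0.32 in CD24lo cells, 0 for all genes, and all 17 members of complex V and all 8 complex I assembly factors were negative. The count fell without each of the 4 arrays compared in turn. Those fits kept 1 array in a group, and their share of all genes is not given. Of 4 stem markers, 3 were lower (1053 to 1947 against 11565 to 13317), and their part was not tested.

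In irradiated CD24hi cells 0 members passed, where 3.33% of all genes were lower and 1.11% higher. At an unadjusted p under 0.05 there were 21, a cutoff at which the share of all genes is not given. The mean of each gene's probe sets gave 1 member past the threshold, in a fit that called 5.04% of all genes. The median difference was -0.27 and 73 of 89 were negative. Relative to the sorted mean, the all-gene median was 0.02 and 0.01 here and 0.05 and 0.03 on untreated CD24hi arrays. Among the named subunits Uqcrc1 gave -0.56, Ndufs1 -0.50, Ndufv1 -0.47, Sdha -0.37 and Cox4i1 -0.30, none past the threshold. Of 4 stem markers, 2 were lower (6499 to 7106 against 26288 to 28061), and their part was not tested. The irradiation effects of the fractions differed for 0 members, at 0.00846% of all genes, and 0 members had an unadjusted p under 0.05.

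In CD24lo cells 1 member was higher with doxorubicin, a share below that of all genes, of which 5.47% were higher and 9.3% lower. This was Uqcrb, a small complex III subunit, at 14.14 and 14.24 in untreated and 14.72 and 14.84 in treated cells, without overlap (0.59 ± 0.17, SE, n = 2 per group, limma adjusted p = 0.0289). The members' median was 0.05. The complexes did not lean alike: 13 of 14 genes of complex IV were positive with a median of 0.23, and 0 of 8 complex I assembly factors were, with a median of -0.39. Relative to the sorted mean, the all-gene median was -0.07 and -0.11 on these arrays and -0.03 and 0.02 on untreated CD24lo arrays. The share of all genes that were positive is not given, and genes on the same arrays are not independent. The Uqcrb call was lost without each of the 4 arrays in turn, 2 of which gave another member, lower, in its place. In the same cells 2 of 5 enterocyte markers were higher (73123 to 81569 against 34816 to 42170) and 3 of 4 stem markers lower (1450 to 1716 against 11565 to 13317). Of 4 T cell markers, 3 were higher (2171 to 2182 against 190 to 399), and 2 of 4 Paneth markers were lower. The part of these markers was not tested.

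In CD24hi cells doxorubicin lowered 1 member, where 0.397% of all genes were lower and 0.795% higher. Atp5g2, 1 of the 3 genes of ring subunit c, read 9.78 and 9.77 in untreated and 8.53 and 8.35 in treated cells, without overlap (-1.34 ± 0.29, limma adjusted p = 0.033). Its value was negative after every other treatment too: -0.76 in doxorubicin CD24lo cells, and in CD24hi and CD24lo cells -0.69 and -0.92 with NICD, -0.68 and -0.51 after irradiation and -0.26 and -0.50 after Lgr5 ablation. These comparisons share the untreated arrays, and of the 7 the NICD one in CD24lo cells passed the threshold. The doxorubicin count in CD24hi cells was 0 without any 1 of the 4 arrays. Of 5 enterocyte markers, 2 were higher in these cells (32191 to 33471 against 9737 to 14518), and 1 of 4 stem markers was lower (14827 to 15950 against 26288 to 28061). T cell markers summed to 950 to 1261 against 152 to 430, with 0 of 4 past the threshold. The part of these markers was not tested. The doxorubicin effects of the fractions differed for 0 members, at 0.0338% of all genes, with 0 at an unadjusted p under 0.05. The share of all genes at that unadjusted p is not given.

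After Lgr5 ablation 0 members passed in CD24lo cells, where 0.144% of all genes were lower and 0.093% higher, and 7 had an unadjusted p under 0.05. The median difference was -0.25, and it ran from -0.41 to -0.05 when 1 array was left out. In CD24hi cells 0 passed, where 0.271% were lower and 0.541% higher, with a median difference of -0.10, and 2 had an unadjusted p under 0.05. Without CD24hi Lgr5-ablated replicate 2 the count was 1. The Lgr5 ablation effects of the fractions differed for 0 members, at 0.0169% of all genes, with 1 at an unadjusted p under 0.05. For none of these unadjusted counts is the share of all genes given. The 2 ablated CD24lo arrays read 9.12 and 10.78 for Cox7a1, 9.34 and 10.19 for Ndufa6 and 11.94 and 12.55 for Sdhb, so that replicate 2 was the higher for each of these. The 4 stem markers, Lgr5 among them, summed to 5090 to 7380 in ablated against 11565 to 13317 in untreated CD24lo cells. In CD24hi cells the sums were 11878 to 14141 against 26288 to 28061. Their part was not tested.

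Among the tested members, the range of group means was widest for Cox7a1 (2.46, from untreated CD24hi to doxorubicin CD24lo cells), then Cox6b2 (2.30, from Lgr5-ablated CD24hi to irradiated CD24lo cells). Ndufa4l2, which was too dim to be tested, spanned 1.92. The narrowest ranges belonged to the assembly factors Sdhaf4 (0.39), Ndufaf1 (0.45) and Sdhaf3 (0.49).

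Whole intestine, on 1 array and with no test, had the highest levels of most subunit genes. The median signal of this array was 62.7, against 101 to 158 on sorted arrays, at the same trimmed mean of 500. Its signals were thus spread otherwise between bright and dim genes. The part of this in the levels of subunit genes and assembly factors was not tested. Of the 77 subunit genes tested, 59 lay above all 20 sorted arrays (76.6%), as did 18.6% of all genes. Their median difference from the mean of the sorted arrays was 0.94, against -0.46 for all genes. By complex the medians were 0.90, 1.03, 1.17, 0.81 and 0.98 for complexes I to V. The 12 assembly factors had a median of -0.45, near that of all genes, with 2 above and 5 below all sorted arrays. Of all 11825 genes tested, 4672 lay below all sorted arrays. Cox7a1 stood highest, at 12.45 on this array and 2.76 above the sorted mean, followed by Sdhb (1.67), Ndufb3 (1.66), Ndufb9 (1.65) and Atp5j2 (1.65). Among tested members the lowest were Ndufaf6 (-1.62), Sdhaf1 (-1.19), Ndufaf4 (-1.10) and Atp5g2 (-1.04). Cox8b, the heart and muscle isoform that did not pass the filter, was too dim for a difference to be given. On the same array T cell markers summed to 9596 against 152 to 2182 on sorted arrays, fibroblast and muscle markers were higher as given above, and the 5 enterocyte markers summed to 124292. Their part in these levels was not tested.

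**Figure D5:**
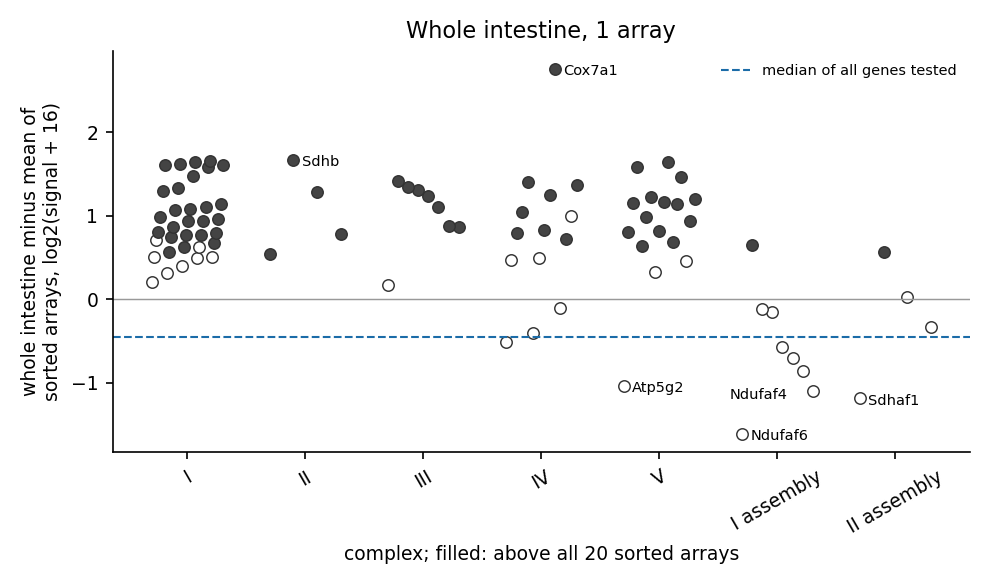
Whole intestine (1 array) minus the mean of the 20 sorted arrays in log2(signal + 16) for each tested member, by complex, with filled points above all 20 sorted arrays and a dashed line at the all-gene median of -0.46. Subunit genes lie mostly above 0 and 10 of 12 assembly factors are open points.

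The pathways that feed the chain were read from lists chosen with earlier results of these data known. In CD24hi against CD24lo cells averaged over conditions, where 19.2% of all genes were lower and 27.4% higher, 14 of 16 fatty acid oxidation genes were lower and 0 higher, among them the carnitine carrier Slc25a20 (-1.09) and Cpt1a, the entry enzyme (-0.64). Of 17 genes of the tricarboxylic acid cycle and its feeders 11 were lower and 1 higher, led by Dlat (-0.64), Ogdh (-0.57) and Dlst (-0.54). Of 16 glycolysis genes 10 were lower, led by Pfkp (-1.60) and Hk1 (-0.91), and 1 was higher. The lists were not tested against each other. Of 13 genes of cytochrome c and the electron carriers, 10 were lower, including Cycs, cytochrome c itself (-0.54), and 1, Coq2 of ubiquinone synthesis, was higher (0.53). Of 21 assembly factors of complexes III and IV, 9 were lower, led by Sco1 (-0.67), and 2 higher. Of 76 mitochondrial ribosomal protein genes, 11 were lower (14.5%) and 3 higher, both shares below those of all genes.

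Regulators of mitochondrial genes went both ways, with 8 of 18 higher and 3 lower (16.7%) in CD24hi cells; the share of lower ones was below that of all genes. The lower ones were the coactivators Ppargc1a (-1.23) and Ppargc1b (-0.95) and the nuclear receptor Esrra (-0.79). Higher were Pprc1 (0.75), Myc (0.71) and Esrrg (0.69) among others. With NICD in CD24lo cells, where 7.72% of all genes were lower and 6.63% higher, 29 of the 76 mitochondrial ribosomal protein genes were lower and 1 higher. Lower were also 5 of 16 fatty acid oxidation genes, led by Acadvl (-1.30), and 5 of 17 genes of the tricarboxylic acid cycle, led by Fh1 (-0.89), with 0 higher in both lists. Of the electron carriers 4 of 13 were lower, led by Cyc1 (-1.14), the complex III cytochrome that the symbol rule leaves out, and of the 18 regulators 1 was lower, the mitochondrial RNA polymerase gene Polrmt.

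Some members have more than 1 probe set, and 50 members were read from a probe set type that can match related transcripts. All probe sets with 1 symbol that passed the filter were therefore fitted in the same way, with adjustment over all of them. For the members lower in CD24hi cells averaged over conditions, 48 of 50 other probe sets had the same sign, 36 passed the threshold and 0 passed it the other way. In untreated cells alone, 10 of 12 other probe sets of the called members had the same sign, but 2 passed and 0 passed the other way. For irradiation in CD24lo cells, 5 of 6 had the same sign, 3 passed and 0 passed the other way. For the members lower with NICD in CD24lo cells, 26 of 33 had the same sign, 16 passed, and 1, of Ndufs4, passed the other way (1.01). A second probe set of Atp5d gave -1.67 with NICD in CD24lo cells.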

How the data were processed

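Small amounts of RNA from sorted cells were amplified, biotin-labelled and hybridised to Affymetrix arrays, per the labels' protocols. The deposited values are linear signal intensities, for which the submitters' processing notes name MAS5 without a version, and the trimmed mean of every deposited array was 500. No detection calls were used. Here, log2(signal + 16) was taken with no further scaling. Each gene was read from the probe set with the highest mean over the 20 sorted arrays, among probe sets with 1 symbol in GEO's platform annotation. Genes above the array median on at least 2 sorted arrays were tested, 11825 in all. Group means were fitted with limma 3.58.1 in R 4.3.3 over the 20 sorted arrays (10 residual degrees of freedom, variance trend), two-sided, with Benjamini-Hochberg adjustment over all genes at 0.05 in each of 14 comparisons; ± gives the standard error. Fold changes of dim genes are understated by the added 16. Counts at an unadjusted p under 0.05 are given without the share of all genes at that cutoff. They cannot be set against the adjusted shares. Replicate numbers were not treated as pairs. Same-numbered samples deviated together by a correlation of -0.414 to 0.385 over 45 pairs of groups. Named genes followed a rule: chosen core subunits and isoform families whatever their result, every member past the threshold where 10 or fewer passed and otherwise the 3 largest of each complex, the widest and narrowest 3 ranges, the 5 extremes in whole intestine, and up to 3 genes of each other list. Other names, such as the full list of 12 in untreated cells, were chosen after their values were seen. The members, lists and rule were chosen with earlier results of these data known. The number of arrays limits the precision.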

Additional observations from a re-analysis of the deposited data

Results flagged for a closer look

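For 3 members the NICD effect in CD24hi cells differed from that in CD24lo cells by a test of the difference itself (limma, Benjamini-Hochberg over all genes), which 2.61% of all genes also passed, so the share of members is near that of all genes. The difference of effects, CD24hi minus CD24lo, was 1.70 for Atp5d, 1.45 for Ndufa6 and 1.14 for Cox4i1 on the log2 scale. Without CD24hi NICD replicate 2, which stood apart in its actin ratio, 0 members passed, and the differences were 1.14, 1.49 and 0.83. The cause was not tested.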

How the results depend on the processing

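Counts of members past the threshold moved by over 1.5 times as follows, with the percent of all genes that each fit called in brackets. Untreated CD24hi against CD24lo went from 12 to 20 with 75th percentile centring [14.5%], 21 with the mean of probe sets [16.7%] and 7 without the variance trend [13.4%]. NICD in CD24lo went from 38 to 25 with gene-specific probe sets [13.3%], 23 without the trend [11.8%] and 22 when the groups compared were fitted alone [7.32%]. Doxorubicin in CD24lo went from 1 to 0 with quantile normalization [13.7%], no filter [9.15%] or no trend [13.1%], 3 with the mean of probe sets [16.2%] and 4 fitted alone [13.9%]. In CD24hi, doxorubicin went from 1 to 0 without the trend [1.06%] and 2 fitted alone [3.43%], NICD from 1 to 0 fitted alone [3.77%], and irradiation from 0 to 1 with the mean of probe sets [5.04%]. The difference of NICD effects went from 3 to 0 without the filter [0.308%], without the trend [0.271%] or fitted alone [0.626%], and to 1 with gene-specific probe sets [2.61%]; its median moved from 0.50 to 0.34 with quantile normalization and 0.37 with gene-specific probe sets. Ndufb2 with NICD in CD24lo reversed to 0.45 with a gene-specific probe set. Leaving out 1 array gave 48 to 64 for the fractions over 5 conditions, 1 to 5 for untreated fractions, 0 to 1 for irradiation and doxorubicin in CD24lo, 0 to 31 for NICD in CD24lo, 0 to 1 for Lgr5 ablation and irradiation in CD24hi, 0 in all fits for doxorubicin in CD24hi, 0 to 13 for NICD in CD24hi and 0 to 22 for the difference of NICD effects. The share of all genes is not given for each of these leave-out fits. From the member counts alone, a drop in members cannot be told from a loss of calls over all genes. The causes were not tested. Of 1322 alternatives of 58 named results, 1091 kept direction and side of the threshold, 230 lost the threshold and 1 reversed. With the replicate block the counts were 13 for untreated fractions, 61 over 5 conditions, 35 for NICD in CD24lo and 5 for irradiation in CD24lo. No count moved by over 1.5 times, and the numbers did not pair the samples. The share of all genes called with the block is not given. The fit without NICD conditions and the NICD fraction difference without CD24hi replicate 2 were chosen after seeing the data. Choosing probe sets after the filter left every count as it was.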
